A study of Mus musculus with 4 samples.

Results

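The lysosomal cathepsins described here are 8 mouse genes, Ctsa, Ctsb, Ctsc, Ctsd, Ctsh, Ctsl, Ctss and Ctsz, taken by their symbols from a table of 32285 gene rows. They were followed in 4 single-nucleus RNA libraries of aortic tissue, 1 library per group. In all groups, the untreated one included, the mice carried a CA1 knock-in, CA1 being carbonic anhydrase 1, and lacked apolipoprotein E (ApoE-/-), a deletion that makes mice prone to atherosclerosis. The MTZ-simultaneous library came from mice given high-fat food together with MTZ, which the labels spell methoxazolamide and the series title calls an inhibitor of CA1. In the MTZ-after library the compound was given once the disease was established on high-fat food. The high-fat library came from mice on high-fat food without MTZ, and the untreated library from mice with neither. The labels used here do not give the promoter or cell type that drives the knock-in, the species of its sequence, the age of the mice or how many were pooled. With 1 library per group there was no replicate and no test: every interval below is an exact 95% interval that covers counting error only, and a difference between libraries cannot be told apart from a difference between the animals or dissections behind them.

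Cathepsins are proteases that are made as inactive precursors, sorted to the lysosome by mannose 6-phosphate receptors and other sorting proteins, and activated there at acid pH. Macrophages hold large amounts of them for breaking down engulfed material, and in atherosclerotic vessels several members are also released and can cut elastin and collagen. Ctsb and Ctsl are cysteine endopeptidases. Ctss is a cysteine endopeptidase that stays active near neutral pH and trims the invariant chain in antigen-presenting cells. Ctsc removes dipeptides and activates the serine proteases of leukocyte granules, Ctsh is mainly an aminopeptidase, and Ctsz is a carboxypeptidase. Ctsd is the aspartic endopeptidase of the family, and Ctsa is a serine carboxypeptidase that also protects beta-galactosidase and neuraminidase 1 in the lysosome.

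The 8 genes lie on 6 chromosomes of GRCm38 (mm10). Ctsa is at chr2:164832873-164841032 and Ctsz at chr2:174427493-174439039, Ctss at chr3:95526786-95556403, Ctsc at chr7:88278085-88310888 and Ctsd at chr7:142375911-142388038. Ctsh is at chr9:90054152-90076089, Ctsl at chr13:64359337-64370890 and Ctsb at chr14:63122462-63145923. Ctsd shares 6757 bases on the same strand with the gene model Gm49369, so its counts depend on how reads in that stretch were assigned. Ctsl overlaps the processed pseudogene Gm49230 by 395 bases on its own strand. Ctsa overlaps Pltp by 1515 bases on the opposite strand.

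Promoter windows (250 bases before to 50 after a start) were present in the RefSeq table for GRCm38.p6 for 6 of the 8 members, with 2 windows for Ctsa and none for Ctsb or Ctsh. They were searched on both strands for CACGTG, the core of the element that the lysosome regulators Tfeb, Tfe3, Mitf and Tfec are known to bind, and for GAGGAA, the core bound by the myeloid factor PU.1. CACGTG was found in 7.15% of 32851 windows of all genes and in 3 of the 7 member windows, those of Ctsa, Ctsd and Ctsl. The Ctsl window, chr13:64370471-64370770, lies inside the gene span and does not reach the annotated gene start, which was not searched. GAGGAA was found in 28.3% of all windows and in 2 member windows, those of Ctsc and Ctss. The windows of Ctsa, Ctsd, Ctsc and Ctss are shown because Ctsa and Ctsd each held CACGTG 2 times while Ctsc and Ctss each held GAGGAA 2 times and no CACGTG. For Ctsa only the window that lies inside the gene span is shown. Its other window, chr2:164832622-164832921, which spans the annotated gene start, held neither CACGTG nor GAGGAA. Capitals mark CACGTG or, in the last pair, GAGGAA and its reverse complement. A match is a description of letters and not evidence of binding.
Ctsa, chr2:164833523-164833822, plus strand: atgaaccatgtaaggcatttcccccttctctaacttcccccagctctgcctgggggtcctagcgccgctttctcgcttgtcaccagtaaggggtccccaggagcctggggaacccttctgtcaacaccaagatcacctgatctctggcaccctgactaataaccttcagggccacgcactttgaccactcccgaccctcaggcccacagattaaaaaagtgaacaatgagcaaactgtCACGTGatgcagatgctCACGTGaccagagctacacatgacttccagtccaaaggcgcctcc
Ctsd, chr7:142387778-142388077, minus strand: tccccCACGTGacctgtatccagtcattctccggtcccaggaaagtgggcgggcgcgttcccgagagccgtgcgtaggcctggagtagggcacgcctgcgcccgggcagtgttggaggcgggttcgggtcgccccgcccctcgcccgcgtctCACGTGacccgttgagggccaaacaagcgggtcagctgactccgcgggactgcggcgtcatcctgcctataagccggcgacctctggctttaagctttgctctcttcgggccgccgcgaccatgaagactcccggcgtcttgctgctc
Ctsc, chr7:88277835-88278134, plus strand: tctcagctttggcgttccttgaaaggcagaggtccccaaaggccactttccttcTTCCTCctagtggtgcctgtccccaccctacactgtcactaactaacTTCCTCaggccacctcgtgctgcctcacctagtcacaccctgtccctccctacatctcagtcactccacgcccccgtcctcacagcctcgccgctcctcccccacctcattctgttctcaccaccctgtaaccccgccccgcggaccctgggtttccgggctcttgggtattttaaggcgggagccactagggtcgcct
Ctss, chr3:95526536-95526835, plus strand: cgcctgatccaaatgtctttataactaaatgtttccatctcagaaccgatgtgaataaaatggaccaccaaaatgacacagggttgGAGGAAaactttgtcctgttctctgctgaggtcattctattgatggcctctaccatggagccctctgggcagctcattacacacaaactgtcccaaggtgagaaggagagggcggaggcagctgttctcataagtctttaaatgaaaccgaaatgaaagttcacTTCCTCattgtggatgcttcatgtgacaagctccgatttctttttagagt

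After filters and the removal of likely doublets, 99716 nuclei were kept, 17848 in the MTZ-simultaneous, 25992 in the MTZ-after, 35104 in the high-fat and 20772 in the untreated library, with medians of 1427, 825, 953 and 2033 UMIs (unique transcript molecules) per nucleus in that order. Any pair of libraries shared 119 to 376 cell barcodes, at most 1.34% of the smaller library. Car1, the mouse gene for carbonic anhydrase 1, had 151 CPM in MTZ-simultaneous, 63.5 CPM in MTZ-after, 86.1 CPM in high-fat and 128 CPM in untreated nuclei. Apoe was at 8.89 to 10.9 CPM in the 4 libraries, and neither gene checks the labels, since all groups carry both changes and the labels do not say whether knock-in transcripts are counted as Car1. The tissue that came with the aorta differed between libraries. Brown adipocyte-like nuclei made up 1.96% of MTZ-simultaneous, 1.76% of MTZ-after, 0.239% of high-fat and 30.9% of untreated nuclei, adrenal cortex-like nuclei were 17.0% of the MTZ-after library, and mesothelial-like nuclei were 17.2% of the MTZ-simultaneous library. Smooth muscle-like nuclei, which define the arterial wall, were 10.9% of MTZ-simultaneous, 7.94% of MTZ-after, 1.52% of high-fat and 2.37% of untreated nuclei. Macrophage-like nuclei were 11.8% of MTZ-simultaneous, 10.1% of MTZ-after, 48.4% of high-fat and 10.4% of untreated nuclei. Their number in the high-fat library, 17007 here, ran between 10425 and 24170 under other filters and clusterings. A small macrophage-like cluster led by Wfdc17, Fabp5, Lyz2 and Ftl1 stood apart, since 190 of its 238 nuclei were untreated. The members' high-fat to untreated medians over all kept nuclei and in the macrophage-like class are given with and without it. Some other results that it touches are given only with it. A cluster led by Vmn2r26, Padi4 and Alox15 had 6 of 14 macrophage markers enriched but scored highest for mesothelial ones, 3 of 8, with none of these among its leading genes. It was left unnamed and outside the macrophage-like class. It held 739 MTZ-simultaneous, 186 MTZ-after, 57 high-fat and 33 untreated nuclei, and its Ctsb was at 417 CPM in MTZ-simultaneous, 441 CPM in MTZ-after and 825 CPM in high-fat nuclei. The members and the other listed genes were kept out of the clustering.

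Over all kept nuclei, each of the 8 cathepsins was highest in the high-fat library. Levels are CPM, the counts of a gene scaled to a fixed total of the UMIs summed over nuclei. CPM is not divided by gene length, so a value is compared across libraries and cell classes and not between genes. A difference was called when it was at least 2-fold and the higher library held at least 50 counts of the gene. Ctsb had 386 CPM in the MTZ-simultaneous, 449 CPM in the MTZ-after, 1016 CPM in the high-fat and 470.4 CPM in the untreated library. Ctsl had 245 CPM in MTZ-simultaneous, 299 CPM in MTZ-after, 742 CPM in high-fat and 380.1 CPM in untreated nuclei. For both endopeptidases the high-fat library stood above the other 3. Ctss had 149.8 CPM in MTZ-simultaneous, 108 CPM in MTZ-after, 310.2 CPM in high-fat and 138 CPM in untreated nuclei, the same arrangement. Ctsd, the aspartic protease, had 253 CPM in MTZ-simultaneous, 224 CPM in MTZ-after, 567 CPM in high-fat and 312 CPM in untreated nuclei.

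The exopeptidases and Ctsa were also highest in the high-fat library. Ctsc had 74.3 CPM in MTZ-simultaneous, 103 CPM in MTZ-after, 152 CPM in high-fat and 82.6 CPM in untreated nuclei. Ctsz had 101 CPM in MTZ-simultaneous, 83.2 CPM in MTZ-after, 185 CPM in high-fat and 128 CPM in untreated nuclei. Ctsh had 114 CPM in MTZ-simultaneous, 89.8 CPM in MTZ-after, 125 CPM in high-fat and 92.0 CPM in untreated nuclei. For Ctsh the MTZ-simultaneous library was nearest to high-fat. Ctsa had 60.7 CPM in MTZ-simultaneous, 46.2 CPM in MTZ-after, 86.2 CPM in high-fat and 41.1 CPM in untreated nuclei.

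The high-fat to untreated ratio was 2.24 (2.19 to 2.30) for Ctss, 2.16 (2.13 to 2.19) for Ctsb and 2.09 (1.99 to 2.20) for Ctsa, and these 3 members were called. Ctsl, with a ratio of 1.95 (1.92 to 1.98), Ctsc with 1.84 (1.77 to 1.91) and Ctsd with 1.82 (1.78 to 1.85) lay just under the 2-fold limit. Ctsz, with 1.44 (1.40 to 1.49), and Ctsh, with 1.36 (1.31 to 1.41), differed least. All 8 members were above 0 on the log2 scale, with a median log2 ratio of 0.92, computed with 1 CPM added. Over the 16456 genes with enough counts the median was 0.09, and 13.8% were called in one direction or the other. The summed macrophage markers were 1526 CPM in the high-fat and 843 CPM in the untreated library, and they moved with the members.

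The untreated value, and so this ratio, depended on which nuclei were counted. Without the Wfdc17 cluster, the high-fat library had 733 CPM of Ctsl and the untreated library 251 CPM, 5 members were called higher, against 14.2% of all genes, and the median log2 ratio was 1.23. Without the classes of surrounding tissue (adipocytes, mesothelium, adrenal, chromaffin and liver cells), Ctsl had 774 CPM in high-fat and 700.4 CPM in untreated nuclei. There the median was 0.38, no member was called, 7 of 8 were above 0, and 6.08% of all genes were called. These nuclei still include the Wfdc17 cluster, which held 8484 of their 18239 untreated Ctsl counts. Values without both the cluster and the surrounding tissue were not computed. Brown adipocyte-like nuclei alone held 46.2% of the untreated library's UMIs, at 147 CPM of Ctsl.

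**Figure D1:**
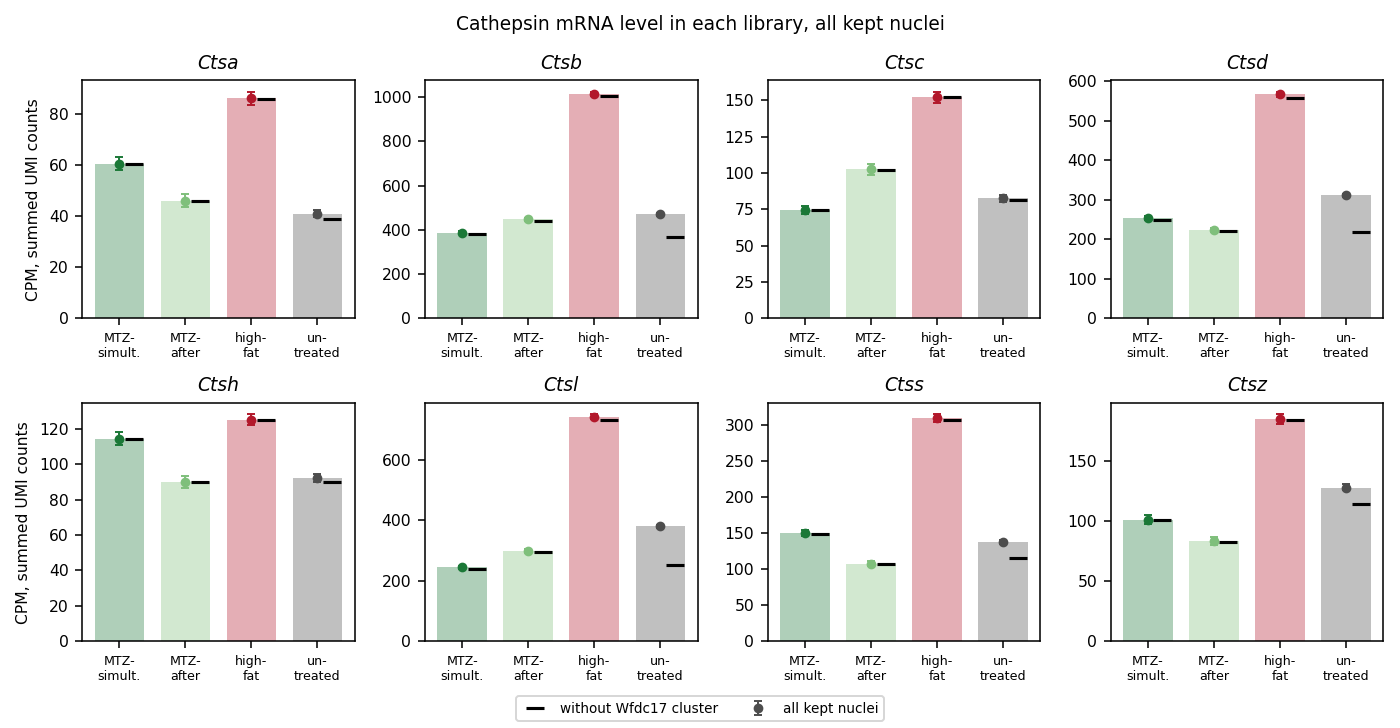
Level of each cathepsin in CPM of summed UMI counts (linear axes from 0) in the 4 libraries: bars and points are all kept nuclei with exact 95% Poisson intervals, and black dashes leave out the Wfdc17 cluster. The high-fat bar is the tallest in every panel, and the dashes lie farthest below the bar in the untreated library, as for Ctsl (380.1 CPM with and 251 CPM without that cluster) and Ctsd (312 CPM with and 220 CPM without it).

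Both MTZ libraries were below the high-fat library for every member over all kept nuclei. The 2 comparisons share the high-fat library, so they are given side by side and not as support for each other. In the MTZ-simultaneous library 5 members were called lower, Ctsl at a ratio of 0.330 (0.322 to 0.338), Ctsb at 0.380 (0.373 to 0.387), Ctsd at 0.447 (0.437 to 0.458), Ctss at 0.483 (0.468 to 0.498) and Ctsc at 0.489 (0.467 to 0.511). Ctsz at 0.547 (0.526 to 0.569), Ctsa at 0.705 (0.668 to 0.743) and Ctsh at 0.916 (0.880 to 0.954) were not called. The median log2 ratio was -1.03, beside 0.10 over all genes tested, of which 10.4% were called.

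In the MTZ-after library 5 members were also called lower, with Ctsz in place of Ctsc. Ctss was lowest relative to high-fat, at 0.347 (0.334 to 0.360), followed by Ctsd at 0.396 (0.385 to 0.407), Ctsl at 0.403 (0.394 to 0.413), Ctsb at 0.442 (0.433 to 0.450) and Ctsz at 0.450 (0.430 to 0.470). Ctsa, at 0.536 (0.503 to 0.570), Ctsc, at 0.675 (0.646 to 0.704), and Ctsh, at 0.719 (0.687 to 0.754), were not called. The median log2 ratio was -1.16, beside 0.04 over all genes tested, of which 16.2% were called, 2246 higher and 420 lower in MTZ-after. The summed macrophage markers were 925 CPM in MTZ-simultaneous, 858 CPM in MTZ-after and 1526 CPM in high-fat, so they moved with the members, and their part in these ratios was not tested. Without the surrounding-tissue classes the medians were -0.90 for MTZ-simultaneous and -0.93 for MTZ-after.

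In the main clustering, most of the cathepsin UMIs of the high-fat library lay in macrophage-like nuclei. For Ctss the share in these nuclei was 38.1% (36.8 to 39.4) in MTZ-simultaneous, 33.1% (31.5 to 34.8) in MTZ-after, 71.9% (71.2 to 72.7) in high-fat and 57.4% (56.4 to 58.5) in untreated. For Ctsb it was 33.1% in MTZ-simultaneous, 32.3% in MTZ-after, 69.6% in high-fat and 50.4% in untreated. Ctsh was the least concentrated member, at 17.0% in MTZ-simultaneous, 13.6% in MTZ-after, 57.3% in high-fat and 20.9% in untreated. These shares exceeded the share of all UMIs that the class held, which was 11.6% in MTZ-simultaneous, 10.1% in MTZ-after, 54.8% in high-fat and 10.1% in untreated. In the untreated library the 190 nuclei of the Wfdc17 cluster, with 0.959% of its UMIs, held 34.5% (33.9 to 35.1) of its Ctsl, 30.2% (29.5 to 30.8) of its Ctsd and 22.2% (21.8 to 22.7) of its Ctsb UMIs. The same nuclei held 2.64% of its Ctsc and 3.45% of its Ctsh UMIs. With these nuclei taken out of the class only, the untreated macrophage-like share was 40.7% for Ctss, 28.2% for Ctsb and 17.5% for Ctsh. The library's total was left unchanged for this.

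**Figure D2:**
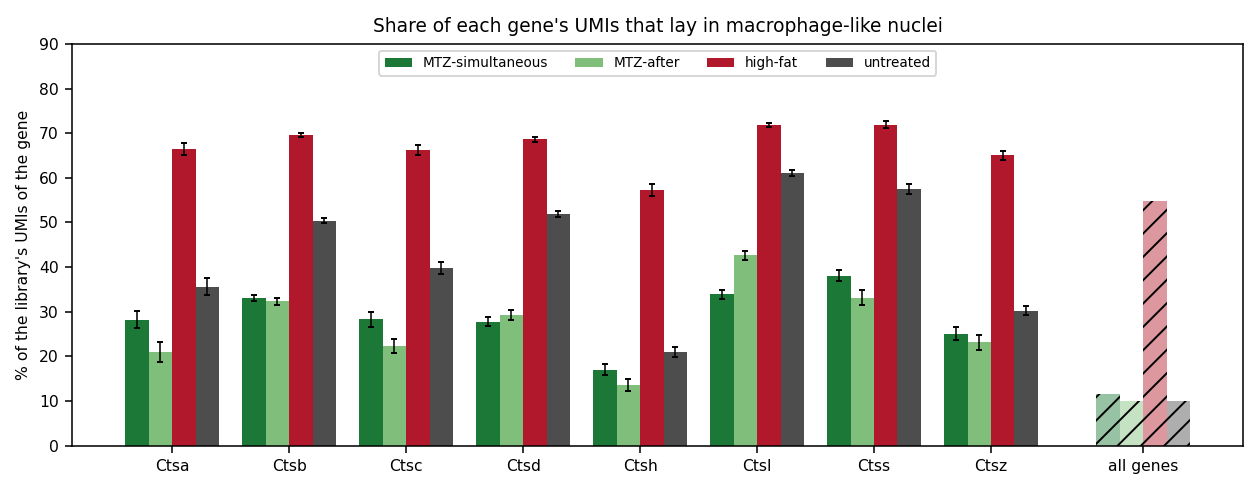
Percent of each cathepsin's UMIs in a library that lay in macrophage-like nuclei, with exact 95% binomial intervals, in the 4 libraries; the hatched bars give the same share over the UMIs of all genes. In the high-fat library the shares ran between 57.3% for Ctsh and 71.9% for Ctss, above the 54.8% of all UMIs.

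Within macrophage-like nuclei the order of the libraries was different: the untreated library was highest for 7 of the 8 members, and Ctsa was about level between MTZ-simultaneous and untreated. Ctsl had 715 CPM in MTZ-simultaneous, 1257 CPM in MTZ-after, 973 CPM in high-fat and 2306 CPM in untreated macrophage-like nuclei. Ctsd had 606 CPM in MTZ-simultaneous, 648 CPM in MTZ-after, 709.7 CPM in high-fat and 1604 CPM in untreated nuclei. These were the 2 members called lower in high-fat than in untreated, at ratios of 0.422 (0.413 to 0.431) for Ctsl and 0.442 (0.432 to 0.453) for Ctsd. All 8 members were lower in high-fat, with a median log2 ratio of -0.85, beside 0.06 over 14105 genes, of which 13% were called. The summed level of the 14 macrophage markers moved the same way, at 1993 CPM in high-fat and 3797 CPM in untreated macrophage-like nuclei.

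The difference was smaller without the Wfdc17 cluster. Then Ctsl had 956 CPM in high-fat and 1108 CPM in untreated macrophage-like nuclei, a ratio of 0.863 (0.840 to 0.888), and Ctsd had 693 CPM in high-fat and 740.3 CPM in untreated nuclei. No member was called, against 13.1% of all genes, and the median log2 ratio was -0.29. The untreated library was then highest for 6 of the 8 members. Ctsl was instead highest in MTZ-after, at 672 CPM in MTZ-simultaneous, 1223 CPM in MTZ-after, 956 CPM in high-fat and 1108 CPM in untreated nuclei. Ctsa was highest in MTZ-simultaneous, at 146 CPM in MTZ-simultaneous, 93.8 CPM in MTZ-after, 104 CPM in high-fat and 131 CPM in untreated nuclei. Ctsc then had the lowest ratio, at 0.544 (0.516 to 0.574), with 184 CPM in high-fat and 338 CPM in untreated nuclei. The Cd163 and F13a1 cluster, where Ctsc was highest, held 3.36% of MTZ-simultaneous, 2.85% of MTZ-after, 1.81% of high-fat and 4.40% of untreated nuclei, so the class was made up of different clusters in different libraries. By the naming score that cluster ranked higher for monocyte or dendritic cell and neutrophil markers than for macrophage markers. With the Wfdc17 cluster counted again and only the Cd163 and F13a1 cluster left out, 5 members were called lower in high-fat than in untreated. They were Ctsl at 0.311 (0.305 to 0.318), Ctsd at 0.330 (0.322 to 0.338), Ctss at 0.416 (0.402 to 0.431), Ctsb at 0.417 (0.409 to 0.425) and Ctsz at 0.455 (0.433 to 0.478). Of all genes 14.8% were called, and the members' median log2 ratio was -1.20. The Wfdc17 cluster held 8484 of the 14699 untreated Ctsl counts in this setting. Values without both clusters were not computed.

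Against high-fat, neither MTZ library had a called member in macrophage-like nuclei. For MTZ-simultaneous the median log2 ratio was -0.02, beside 0.06 over all genes tested, of which 3.82% were called. For MTZ-after it was -0.12, beside 0.01 over all genes tested, of which 3.67% were called. Ctsl was at 0.734 (0.707 to 0.763) of the high-fat level in MTZ-simultaneous nuclei and at 1.29 (1.25 to 1.34) in MTZ-after nuclei. Ctsa lay the other way, at 1.41 (1.29 to 1.54) in MTZ-simultaneous and 0.913 (0.805 to 1.03) in MTZ-after nuclei. Ctss, at 1.20 (1.15 to 1.26) in MTZ-simultaneous and 0.863 (0.809 to 0.920) in MTZ-after nuclei, followed Ctsa rather than Ctsl.

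**Figure D3:**
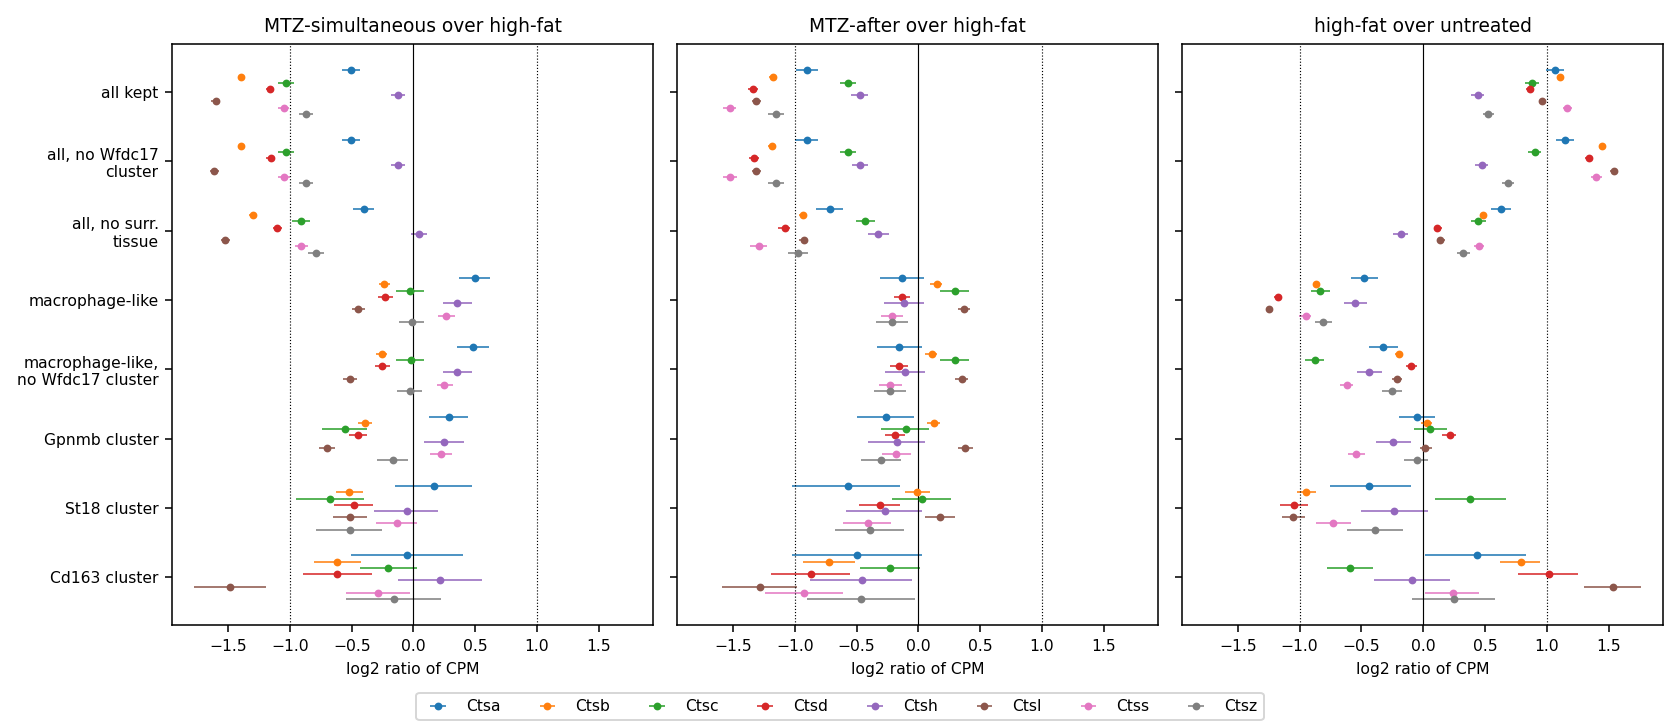
Log2 ratio of CPM for each cathepsin (colours) in the 3 comparisons (panels), with exact 95% intervals and dotted lines at the 2-fold limits; rows give the nuclei counted, and "no surr. tissue" leaves out adipocyte, mesothelial, adrenal cortex, chromaffin and hepatocyte classes. Over all kept nuclei the points lie left of 0 in both MTZ panels and right of 0 for high-fat over untreated, whereas in macrophage-like nuclei they lie around 0 in the MTZ panels and left of 0 for high-fat over untreated.

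The macrophage-like class held 4 clusters, and the members were not at the same level in each. The cluster led by Gpnmb and Mmp12, genes of lipid-loaded macrophages, had 1090 MTZ-simultaneous, 1241 MTZ-after, 7682 high-fat and 821 untreated nuclei. In it Ctsb had 1557 CPM in MTZ-simultaneous, 2222 CPM in MTZ-after, 2043 CPM in high-fat and 2012 CPM in untreated nuclei. Ctsl had 1029 CPM in MTZ-simultaneous, 2179 CPM in MTZ-after, 1672 CPM in high-fat and 1648 CPM in untreated nuclei. High-fat and untreated nuclei of this cluster were thus close for both, and the MTZ-simultaneous nuclei were lowest. Ctsd was highest in high-fat, at 885 CPM in MTZ-simultaneous, 1059 CPM in MTZ-after, 1208 CPM in high-fat and 1046 CPM in untreated nuclei, whereas Ctss was highest in untreated, at 666 CPM in MTZ-simultaneous, 505 CPM in MTZ-after, 571 CPM in high-fat and 832 CPM in untreated nuclei. No member was called in this cluster in any comparison, against 13.9% of genes for high-fat over untreated, 3.60% for MTZ-after over high-fat and 3.73% for MTZ-simultaneous over high-fat. The medians were -0.02, -0.17 and -0.28 on the log2 scale in that order.

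The cluster led by St18 and Ms4a7 came mostly from the high-fat library, with 398 MTZ-simultaneous, 626 MTZ-after, 8663 high-fat and 225 untreated nuclei, and it held lower levels of all 8 members than the Gpnmb cluster in every library. Its macrophage markers were lower too, with 5 of 14 enriched, against 11 of 14 in the Gpnmb cluster. In high-fat nuclei the markers summed to 1617 CPM in the St18 and 2514 CPM in the Gpnmb cluster. Ctsd had 297 CPM in MTZ-simultaneous, 334 CPM in MTZ-after, 415 CPM in high-fat and 857 CPM in untreated nuclei of this cluster. Ctsl had 400.0 CPM in MTZ-simultaneous, 647 CPM in MTZ-after, 570.2 CPM in high-fat and 1182 CPM in untreated nuclei. The untreated nuclei stood above the other libraries for both, and Ctsl and Ctsd were the 2 members called lower in high-fat, against 7.88% of genes. Ftl1, the ferritin light chain gene that also led the Wfdc17 cluster, was 431 CPM in high-fat and 962 CPM in untreated nuclei of this cluster, and the part of such a shift in RNA makeup in the difference was not tested. No member was called in the MTZ comparisons here, against 4.15% of genes for MTZ-simultaneous and 4.81% for MTZ-after.

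The cluster led by Cd163 and F13a1, which mark resident macrophages, also carried the monocyte or dendritic cell genes Adgre4 and Cd209a. It had the highest level of Ctsc in each library, with 386 CPM in MTZ-simultaneous, 380.5 CPM in MTZ-after, 445 CPM in high-fat and 671 CPM in untreated nuclei. The endopeptidases followed another order there. Ctsl had 169 CPM in MTZ-simultaneous, 195 CPM in MTZ-after, 473 CPM in high-fat and 163 CPM in untreated nuclei, and Ctsd had 227 CPM in MTZ-simultaneous, 190.2 CPM in MTZ-after, 348 CPM in high-fat and 172 CPM in untreated nuclei. Ctsl, at 2.90 (2.47 to 3.40), and Ctsd, at 2.02 (1.70 to 2.39), were called higher in high-fat than in untreated, against 5.10% of genes, while Ctsc stood at 0.664 (0.583 to 0.753). Ctsl alone was called lower than in high-fat in MTZ-after, at 0.411 (0.333 to 0.506), against 3.40% of genes, and in MTZ-simultaneous, at 0.358 (0.292 to 0.437), against 3.41%.

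The 190 untreated nuclei of the Wfdc17 cluster had 13684 CPM of Ctsl, 10911 CPM of Ctsb, 9806 CPM of Ctsd, 2406 CPM of Ctss and 1576 CPM of Ctsz, all above the next cluster, led by Gpnmb, where untreated nuclei had 1648 CPM of Ctsl, 2012 CPM of Ctsb, 1046 CPM of Ctsd, 832 CPM of Ctss and 352 CPM of Ctsz. Ctsc, at 227 CPM, was below the 671 CPM of the untreated Cd163 and F13a1 cluster, and Ctsh was at 331 CPM. Fabp5 and Lyz2 were among its leading genes, Ftl1 reached 15339 CPM, and ribosomal protein genes made up 3.81% of its UMIs, against 0.673% to 1.34% in the other 3 macrophage-like clusters. Its nuclei had a median of 1840 UMIs, below the median of 2033 for all untreated nuclei. Untreated medians were 2496 UMIs in the Gpnmb, 2677 in the St18 and 1634 in the Cd163 cluster. High ribosomal protein and ferritin counts are found where cytoplasmic RNA is counted along with nuclear RNA, and the part of such RNA in these levels was not tested. The other libraries held 10 MTZ-simultaneous, 12 MTZ-after and 26 high-fat nuclei of the cluster, too few for a value here.

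**Figure D4:**
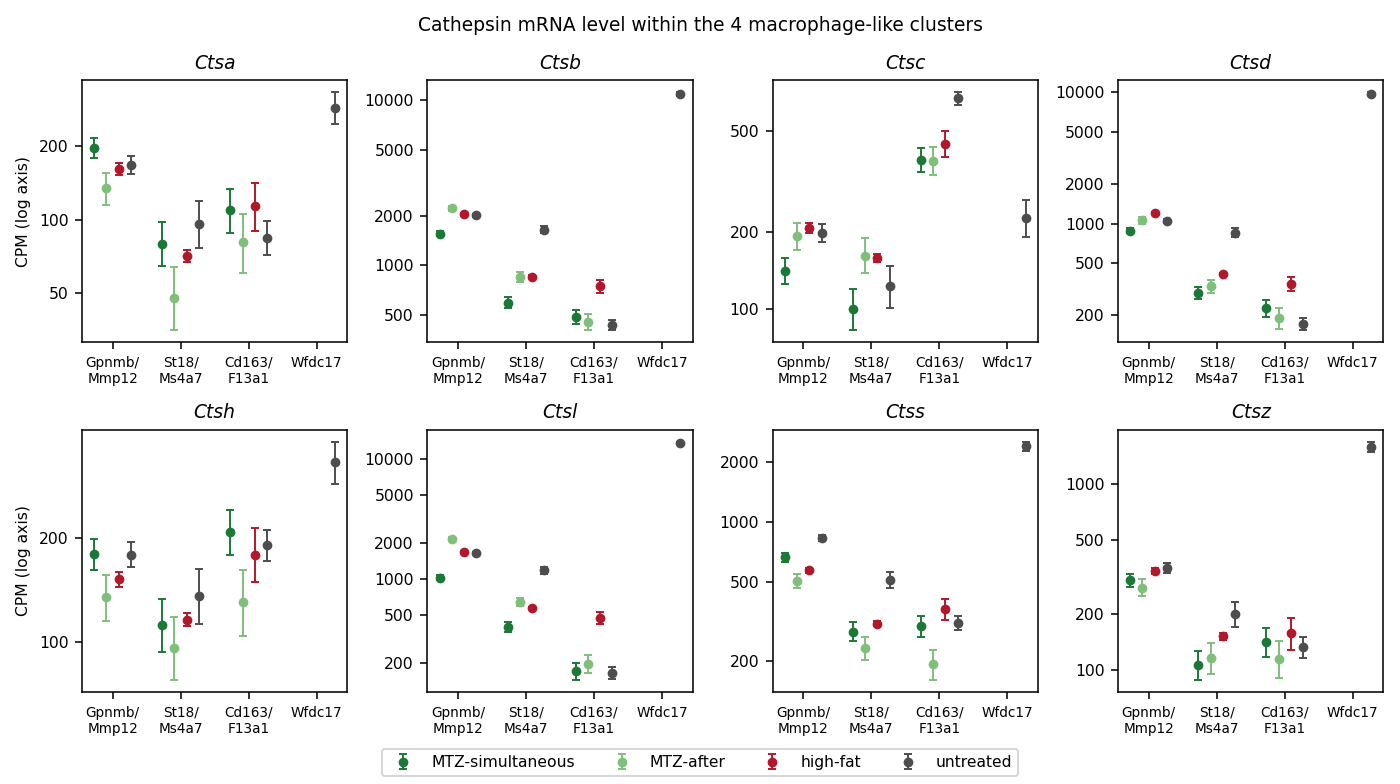
Level of each cathepsin in CPM (log axes) with exact 95% Poisson intervals in the 4 macrophage-like clusters, by library; a library with under 50 nuclei in a cluster is not drawn. The untreated point of the Wfdc17 cluster is the highest in 7 panels, and Ctsc is instead highest in the Cd163 and F13a1 cluster, where it reached 671 CPM in untreated nuclei.

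The high-fat library was also highest for most members outside the macrophage-like class. In T or NK-like nuclei Ctsl had 294 CPM in MTZ-simultaneous, 185 CPM in MTZ-after, 527 CPM in high-fat and 210.2 CPM in untreated nuclei. In endothelial-like nuclei Ctss had 66.6 CPM in MTZ-simultaneous, 70.6 CPM in MTZ-after, 174 CPM in high-fat and 31.2 CPM in untreated nuclei. In fibroblast-like nuclei Ctsb had 308 CPM in MTZ-simultaneous, 351 CPM in MTZ-after, 745 CPM in high-fat and 224 CPM in untreated nuclei. In each of these cases the high-fat library stood above the other 3. Members called higher in high-fat than in untreated numbered 4 of 8 in T or NK-like nuclei, against 8.23% of genes called in either direction, 5 in smooth muscle-like nuclei against 6.64%, 6 in fibroblast-like nuclei against 12.8%, 6 in endothelial-like nuclei against 10.3%, and 0 in adipocyte-like nuclei against 3.73%. Ctss had the largest ratio in endothelial-like nuclei, at 5.56 (4.91 to 6.31), whereas Ctsh lay the other way there, at 0.760 (0.705 to 0.818).

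Macrophage markers were also highest in the high-fat library in these classes, though by different amounts. The summed level of the 14 macrophage markers was 818 CPM in MTZ-simultaneous, 599.7 CPM in MTZ-after, 1216 CPM in high-fat and 654 CPM in untreated T or NK-like nuclei, while the members summed to 1568 CPM in MTZ-simultaneous, 1088 CPM in MTZ-after, 2513 CPM in high-fat and 1173 CPM in untreated. In endothelial-like nuclei the markers summed to 474 CPM in MTZ-simultaneous, 621 CPM in MTZ-after, 863 CPM in high-fat and 394 CPM in untreated. In smooth muscle-like nuclei the markers differed less than the members. There the markers summed to 884 CPM in MTZ-simultaneous, 741 CPM in MTZ-after, 977 CPM in high-fat and 731 CPM in untreated, while the members summed to 992 CPM in MTZ-simultaneous, 918 CPM in MTZ-after, 1972 CPM in high-fat and 864 CPM in untreated. At most 2 of the 14 markers were at 0 in any of these classes and libraries. In the high-fat library the ratio of Ctsl to Ctsb counts ran between 0.638 in B cell-like nuclei and 0.704 in T or NK-like nuclei over 6 classes outside the macrophages, beside 0.753 in macrophage-like nuclei, whereas the ratio of Ctsh to Ctsb ran between 0.132 and 0.223, beside 0.101. In droplet libraries free RNA from one cell type is counted in the droplets of others, and its part in these differences was not tested.

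Shares of nuclei with a UMI were compared after thinning each nucleus to 500 UMIs, which left out 0 of the nuclei compared here. Ctsl was then seen in 29.6% of MTZ-simultaneous, 36.5% of MTZ-after, 41.9% of high-fat and 33.6% of untreated nuclei of the Gpnmb cluster. In T or NK-like nuclei it was seen in 15.0% of MTZ-simultaneous, 9.04% of MTZ-after, 24.8% of high-fat and 10.3% of untreated nuclei. Unthinned, the shares in the Gpnmb cluster were 51.9% in MTZ-simultaneous, 47.7% in MTZ-after, 60.2% in high-fat and 64.3% in untreated, at medians of 1242, 785, 903 and 2496 UMIs in that order. Unthinned shares in T or NK-like nuclei were 28.7% in MTZ-simultaneous, 15.3% in MTZ-after, 39.1% in high-fat and 25.6% in untreated, at medians of 1024, 787, 895 and 1414 UMIs. The Gpnmb cluster was above the T or NK-like nuclei in each library.

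**Figure D5:**
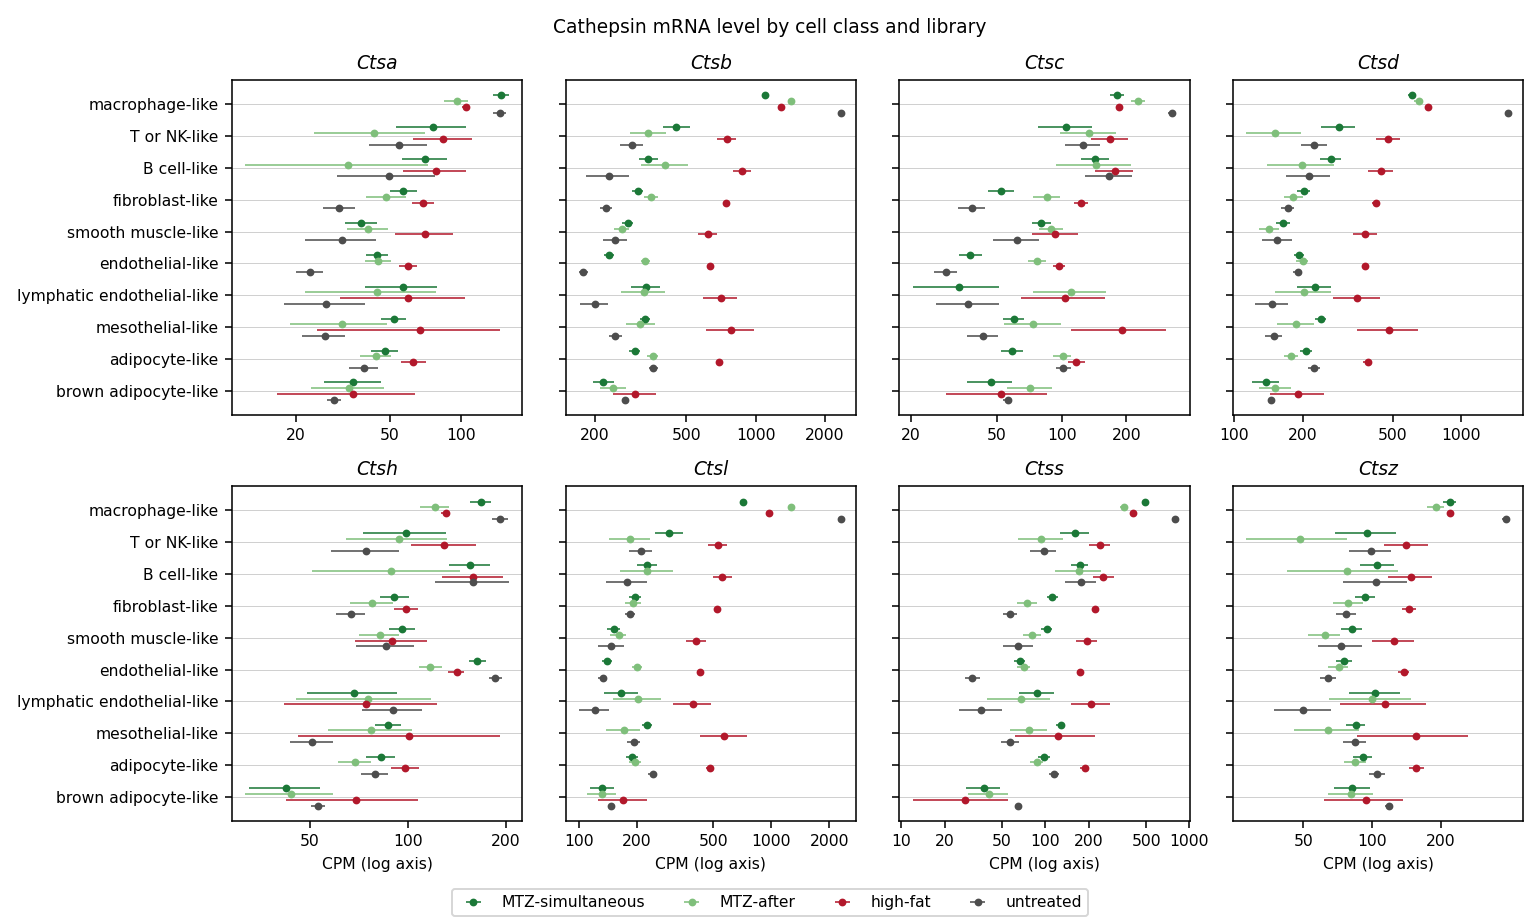
Level of each cathepsin in CPM (log axes) with exact 95% Poisson intervals in 10 cell classes, by library. Macrophage-like nuclei have the highest untreated level of every member, but for Ctsh the untreated endothelial-like level of 185 CPM (177 to 194) is close to the macrophage-like 191 CPM. Without the Wfdc17 cluster, a setting not drawn here, the untreated macrophage-like Ctsh level was 176 CPM (166 to 187), below the endothelial-like one. In T or NK-like and fibroblast-like nuclei the high-fat points lie right of the other libraries for all 8 members.

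The cluster with the highest level was not the same for every member. Among clusters with 50 or more nuclei in a library, the Gpnmb cluster had the highest level of Ctsa, Ctsb, Ctsd, Ctsl, Ctss and Ctsz in each library, apart from the Wfdc17 cluster in the untreated one. Ctsc was highest in the Cd163 cluster in all 4 libraries. Ctsh was highest in the Cd163 cluster in MTZ-simultaneous, at 208 CPM, and in high-fat, at 179 CPM, and in the Gpnmb cluster in MTZ-after, at 135 CPM. In the untreated library Ctsh was highest in the Wfdc17 cluster, at 331 CPM, followed by a large endothelial-like cluster at 211 CPM and the Cd163 cluster at 190.4 CPM. In endothelial-like nuclei as a class Ctsh had 163 CPM in MTZ-simultaneous, 117 CPM in MTZ-after, 141 CPM in high-fat and 185 CPM in untreated nuclei, so there, unlike the other members, the untreated library was highest. Pooled over libraries, 22 clusters held 200 or more nuclei. Across them, and they share libraries and depth, the log2 levels of Ctsb and Ctsl had a Pearson r of 0.99 and those of Ctsd and Ctsl 0.98. For Ctsc, r with the other members ran between 0.51 with Ctsd and 0.80 with Ctss, and for Ctsh between 0.54 with Ctsc and 0.74 with Ctsa. These correlations are descriptions with no test.

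Genes outside the members and the gene lists compared with them were ranked by how like the members' mean profile theirs was over the 22 clusters. The first 8 were C1qc (r = 0.982), Cd68 (0.980), C1qb (0.974), Hmox1 (0.971), Lgals3 (0.970), Pltp (0.968), Pld3 (0.965) and C1qa (0.965). Of these, C1qa, C1qb, C1qc and Cd68 also belong to the macrophage markers that named the clusters and were summed above. C1qa, C1qb and C1qc encode complement C1q, Cd68 a lysosomal membrane glycoprotein of macrophages, Hmox1 heme oxygenase and Lgals3 galectin-3. Without the Wfdc17 cluster r for these 8 ran between 0.906 for C1qa and 0.962 for Lgals3, and Lgals3 ranked 1 of all genes compared. Pltp overlaps Ctsa on the opposite strand, so reads of the pair may not be fully separate.

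Other genes of the lysosome were compared over all kept nuclei by the same rule, by which 13.8% of all genes were called for high-fat over untreated. For high-fat over untreated, 2 of 5 other cathepsins with enough counts were called higher, Ctsk, a collagen-degrading protease, at 56.7 CPM in high-fat and 20.9 CPM in untreated nuclei, and Ctsw, a protease of cytotoxic lymphocytes, at 2.06 CPM in high-fat and 0.866 CPM in untreated nuclei. Of 12 genes of sorting and maturation, 3 were called higher: Lgmn, the asparaginyl endopeptidase that cleaves cathepsin chains, at a ratio of 2.46 (2.41 to 2.51), Grn, which encodes progranulin, at 2.24 (2.16 to 2.33), and Psap, the saposin precursor, at 2.09 (2.06 to 2.11). Among 16 proton pump genes Atp6v0d2 alone was called, at 2.55 (2.50 to 2.60), with 664 CPM in high-fat and 260.4 CPM in untreated nuclei. Among the 4 regulators it was Tfec, at 2.98 (2.79 to 3.19). Of the 6 antigen presentation partners, H2-DMb1 was at 2.44 (2.16 to 2.75) and Cd74, the invariant chain that Ctss trims, at 2.01 (1.92 to 2.12). Neither of 2 cystatin inhibitors with enough counts was called, and 0 genes of these lists were called lower.

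In neither MTZ library was a gene of these lists called higher than in high-fat, beside 10.4% of all genes called in either direction for MTZ-simultaneous and 16.2% for MTZ-after. In MTZ-simultaneous, Atp6v0d2 had a ratio of 0.308 (0.300 to 0.316), Tfec 0.394 (0.364 to 0.425), Lgmn 0.469 (0.458 to 0.480), Psap 0.469 (0.463 to 0.476) and the galactosylceramidase gene Galc 0.496 (0.466 to 0.528), and no other gene of the lists was called. In MTZ-after, Atp6v0d2 had 0.339 (0.330 to 0.348), Tfec 0.417 (0.384 to 0.452), Ctsk 0.417 (0.383 to 0.454) and Lgmn 0.458 (0.447 to 0.470). Cstb, a cystatin that inhibits cysteine cathepsins, was at 0.392 (0.354 to 0.435), and 3 of 26 hydrolases were called, Gusb, Naglu and Gla. The median log2 ratio of the 16 proton pump genes was -0.55 in MTZ-simultaneous and -0.66 in MTZ-after, with all 16 below 0 in both, and that of the 26 hydrolases -0.34 in MTZ-simultaneous and -0.59 in MTZ-after. In macrophage-like nuclei no gene of the 7 lists was called in either MTZ comparison. The share of all genes called there was 3.82% for MTZ-simultaneous and 3.67% for MTZ-after. For high-fat over untreated, 3 genes of the lists were called lower there: Cstb at 0.455 (0.414 to 0.500), H2-Eb1 at 0.442 (0.400 to 0.487) and Acp5 at 0.472 (0.409 to 0.545). Of all genes, 13% were called in either direction in that comparison. These nuclei include the Wfdc17 cluster. The list genes are not given without it, and its part in these 3 calls was not tested.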

How the data were processed

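Single-nucleus libraries, 1 for each of 4 groups, were analysed from the UMI count matrices that the authors deposited. These counts were made with Cell Ranger 7.0.1, per the file headers, and STAR and mm10 are named in the submitters' processing notes. Whether intron reads were counted is not given in the sources used here. Libraries held 31517272 to 69201159 UMIs in 19335 to 38114 nuclei. Nuclei with at least 300 genes and at most 10% mitochondrial counts were kept, and nuclei above the score that bounds the highest 8% of Scrublet scores in each library were removed as likely doublets. Tied scores at that bound were kept, so 7.01% to 7.66% of a library was removed. For clustering, each nucleus was brought to 10000 counts and logged. The 2000 most variable genes, with 85 listed genes left out, were scaled and reduced to 50 principal components, and nuclei were clustered with Leiden at resolution 1 over 20 neighbours (scanpy 1.11.5, leidenalg 0.10.2). A cluster was named "-like" from at least 3 fixed markers at 2-fold or more over the median cluster. The scaling, the number of components and this naming rule were set after a first clustering had mixed lineages. The Cd163 and F13a1 cluster scored highest for monocyte or dendritic markers (6 of 10 enriched). It was put in the macrophage-like class because its macrophage score, which ranked after that for neutrophil markers, was within the margin set for related lineages. A difference from the study's own cell types may come from these rebuilt names.

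CPM was computed from counts added up over the nuclei of a class in a library. Intervals at 95% are exact Poisson, exact binomial (Clopper-Pearson) or exact conditional intervals and cover counting error only. No test was possible with 1 library per group. The members and the gene lists were chosen with earlier results of these data known. All 8 members are named. Genes of other lists are named where called, up to 3 per list and comparison, by the interval bound nearest to 1. Also named are the 8 genes outside these lists whose cluster profile was most like the members, with cell type markers allowed among them. Some results of these lists are not reported here. Of 32285 gene IDs, 32158 were in the GRCm38 annotation. The alternatives were TMM factors (edgeR 4.0.16), equal weight per nucleus, thinning to 500 UMIs, 10 CPM added in place of 1 CPM, a stricter filter, doublets kept, other clusterings, and leaving out the surrounding-tissue classes. The calling rule was tested on simulated data.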

Additional observations from a re-analysis of the deposited data

Results flagged for a closer look

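The high-fat to untreated ratio of 3 cathepsins pointed one way in some cell classes and the other way in others, with at least 2-fold on both sides. With 1 library per group these differences between classes were not tested. Ctsl was at 0.422 in macrophage-like nuclei but at 2.94 in mesothelial-like, 2.82 in fibroblast-like, 2.76 in smooth muscle-like, 3.24 in lymphatic endothelial-like, 3.20 in endothelial-like, 2.51 in T or NK-like and 3.10 in B cell-like nuclei. Some of these rest on few counts. The high-fat library had 79 mesothelial-like nuclei with 51 Ctsl counts and 155 lymphatic endothelial-like nuclei with 79 Ctsl counts. Ctsd was at 0.442 in macrophage-like nuclei but at 2.44 in fibroblast-like, 2.42 in smooth muscle-like, 2.37 in lymphatic endothelial-like, 2.11 in T or NK-like and 2.08 in B cell-like nuclei. Without the Wfdc17 cluster the macrophage-like ratios were 0.863 for Ctsl and 0.936 for Ctsd, and neither was then called. Ctss was at 0.426 in brown adipocyte-like nuclei, where the high-fat library had 84 nuclei and 8 counts of the gene, but at 3.91 in fibroblast-like, 3.00 in smooth muscle-like, 2.45 in T or NK-like and 5.56 in endothelial-like nuclei. Summed macrophage markers were also higher in high-fat than in untreated nuclei outside the macrophages, at 1055 CPM in high-fat and 385 CPM in untreated fibroblast-like nuclei and at 863 CPM in high-fat and 394 CPM in untreated endothelial-like nuclei, and their part in the ratios was not tested.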

How the results depend on the processing

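Over all kept nuclei the members' median log2 ratio kept its sign under each of 9 alternatives in each comparison, between 0.38 and 1.23 for high-fat over untreated, -1.29 and -0.93 for MTZ-after over high-fat, and -1.16 and -0.89 for MTZ-simultaneous over high-fat. For high-fat over untreated it was 0.78 with TMM factors (1 member called), 0.88 with 10 CPM added, 0.38 without surrounding-tissue classes (0 called) and 1.23 without the Wfdc17 cluster (5 called). For MTZ-after it was -1.29 with TMM factors, -1.11 with 10 CPM added and -0.93 without surrounding-tissue classes (2 called). For MTZ-simultaneous it was -1.16 with TMM factors, -0.89 with equal weight per nucleus (2 called), -0.92 with thinned nuclei (2 called), -0.97 with 10 CPM added and -0.90 without surrounding-tissue classes (3 called). For high-fat over untreated, 6.08% of all genes were called without surrounding-tissue classes and 14.2% without the Wfdc17 cluster. No such share is given for the other counts in this paragraph, so they cannot be set against all genes.

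In macrophage-like nuclei the high-fat over untreated median of -0.85 was -0.55 with equal weight per nucleus, -0.54 with thinned nuclei, -0.92 with doublets kept, -0.67 with another clustering seed, -0.48 with libraries centred, -0.02 within the Gpnmb cluster, -0.58 within the St18 cluster, -0.29 without the Wfdc17 cluster and -1.20 without the Cd163 cluster (5 called). It was 0.34 within the Cd163 cluster, the reverse direction. The number called was 0 with equal weight, thinning, another seed, centring, the Gpnmb cluster alone or no Wfdc17 cluster. Within the Gpnmb cluster Ctsd was at 0.21 and Ctsl at 0.02 on the log2 scale, and within the Cd163 cluster Ctsd was at 1.01 and Ctsl at 1.53, the reverse of the class. The MTZ-after median of -0.12 was -0.38 with libraries centred, -0.29 within the St18 and -0.60 within the Cd163 cluster (1 called). The MTZ-simultaneous median of -0.02 was -0.14 with TMM factors, -0.23 with a stricter filter, -0.56 with libraries centred, -0.28 within the Gpnmb, -0.50 within the St18 and -0.24 within the Cd163 cluster (1 called), and -0.22 with the unnamed Alox15 cluster added. Without the Cd163 cluster the medians were -0.00 for MTZ-after and 0.04 for MTZ-simultaneous. Over 15 alternatives MTZ-after ran between -0.60 and -0.00 and kept its sign in 14. The remaining setting, without the Cd163 cluster, was rounded to -0.00 and so counted as having no sign, not the reverse one. MTZ-simultaneous ran between -0.56 and 0.08 and kept its sign in 13. The size of the class changed as well. High-fat macrophage-like nuclei numbered 17007 in the main run, 18762 with a stricter filter and 24170 with doublets kept. They numbered 13018 with another seed, 14037 at the higher Leiden resolution and 10425 with libraries centred. Under these alternatives MTZ-simultaneous ran between 1760 and 2795, MTZ-after between 2224 and 3242, and untreated between 1748 and 2268. The cause of these shifts, in medians and in class size, was not tested. Leaving out the Wfdc17 or the Cd163 cluster, adding the Alox15 cluster and the values within single clusters were chosen after seeing the data. Each setting was changed alone, so leaving out the Cd163 cluster or the surrounding-tissue classes kept the Wfdc17 cluster in. Of the settings for single members, 267 moved a value by less than its counting interval, 305 by more and 4 reversed a member called in the main setting. A change of sign of a member not called there was not counted as a reversal.

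No paired analysis was possible because each group had 1 library. Libraries differed in the tissue dissected with the aorta and in depth, and neither can be told apart from the groups. Small clusters limit what depth can show, as in the 84 high-fat brown adipocyte-like nuclei.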
